A study of Mus musculus with 12 samples.

Results

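Late passage was compared with early passage in wild-type mouse embryonic fibroblasts, across all genes on the array. The comparison uses 6 of the 12 arrays of the series, chosen from the sample titles: 3 of wild-type (WT) cells at late passage and 3 of WT cells at early passage. Mouse embryonic fibroblasts are primary, mixed mesenchymal cells grown out of embryos, here taken at embryonic day E12.5, and a passage is a transfer of the culture to fresh plates. Early cells had been carried for 3 passages and late cells for 5, in medium with serum. The design text gives 3 independent derivations per genotype. No strain, embryo sex or selection of cells is named in the labels, so each culture is a mixture and a group of 3 stands for these derivations only. RNA (100 ng per array) was labelled with a single dye. The other 6 arrays are of cells from Itpr2 knock-out mice (KO) at the same 2 passages. They enter here through the spread they lend to the model and through a test of whether a named WT change differed in KO. The KO arrays also bear on which probes were kept and on which probe stands for a gene.

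Primary mouse fibroblasts divide quickly when first plated and slow down within a few passages, a process tied to oxidative stress in culture and to the p53 and CDK inhibitor pathways. Cells that stop dividing often secrete cytokines, proteases and growth factors, called the senescence-associated secretory phenotype. Growth factors acting through receptor tyrosine kinases and the MAP kinase cascade switch on immediate-early genes, whose products are transcription factors and also phosphatases that damp the same cascade.

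Every value is a log2 level: the log2 of a probe's signal minus the log2 of the 75th percentile of its array, so that 0 is the 75th percentile. Between 60% and 67.5% of 39429 probes were well above background per WT array, somewhat more at late passage (63.3%, 67.5% and 64.6%) than at early passage (60%, 61.6% and 61.8%), and 0 spots were saturated. Late and early arrays lay at different fixed positions on each slide, so position and passage cannot be told apart. Arrays of the same replicate number shared a slide. Ddx3y, a gene of the Y chromosome, was at -7.43 and -7.05 on the early and late arrays of replicate 1 and between 0.82 and 0.95 on the other 4, and none of the 4 Y-linked genes tested was above background on either replicate 1 array, against 3 or 4 on each of the others. Both replicate 1 cultures thus stood apart from the rest in Y-linked genes. The cultures carried fibroblast transcripts at both ages: all 15 fibroblast markers were above background on all 6 arrays, and their summed level (signal over the 75th percentile) was 396.0 to 503.0 early and 385.0 to 429.0 late. All 20 macrophage markers were above background on all 6 arrays too, with a summed level of 74.9 to 148.0 early and 112.0 to 184.0 late, and none was at 0. Fewer cells of a type and less RNA per cell cannot be told apart in bulk arrays. Of 12 endothelial markers, 4 were above background on no WT array, and of 10 blood and erythroid markers, 7.

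Between early and late passage, 2070 of 19507 genes passed the test, of which 1202 were higher and 868 lower late (limma, Benjamini-Hochberg adjusted p under 0.05). That is 10.6% of genes in either direction, 6.16% higher and 4.45% lower, the background against which each gene list below is set. Of the 2070, 2051 had late arrays that did not overlap the early ones, against 27.8% of all genes tested, and the median size of a called difference was 0.85 on the log2 scale. At least 4-fold differences numbered 88 higher and 79 lower. The test rests on a spread shared by all 4 groups, and with a spread of its own for each group 565 genes passed (320 higher, 245 lower). The balance of the directions depends on the scaling: centring arrays on their median moved the median of all genes to -0.141 and gave 801 higher and 1616 lower, and normexp background correction gave 834 and 1121.

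**Figure D1:**
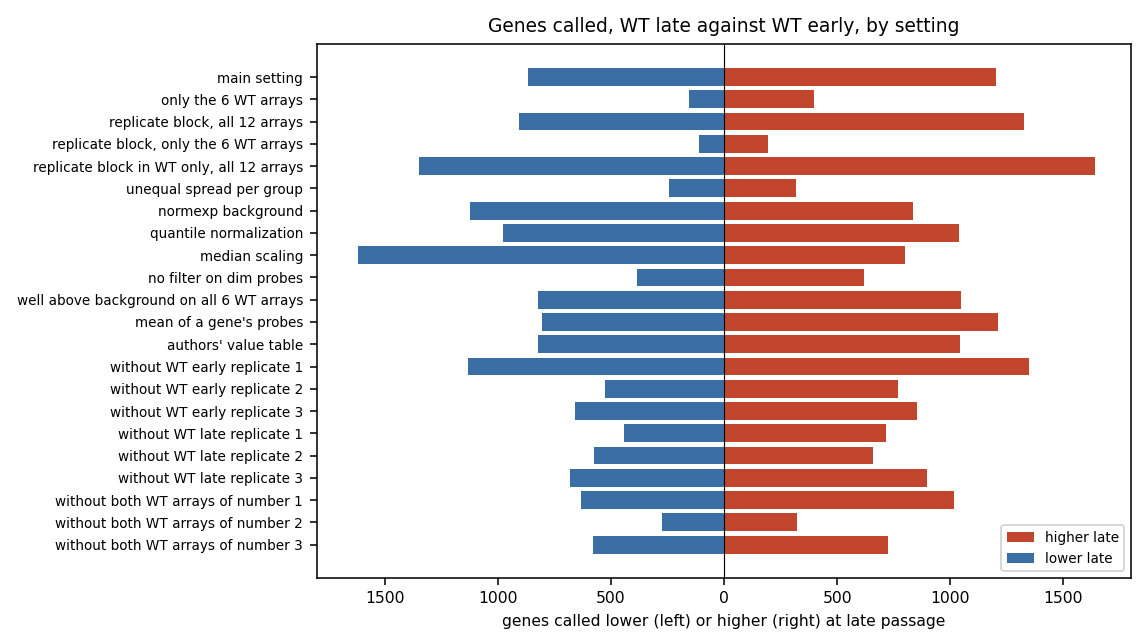
Genes called higher (right) and lower (left) at late passage in WT under each setting of the processing. The total is 2070 in the main setting, 565 with a spread per group and 552 with the 6 WT arrays alone, and lower genes outnumber higher ones with median scaling and normexp.

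Among named genes whose early and late arrays did not overlap and that were above background on at least 1 early array, the largest rise was that of Prl2c5, a prolactin-family gene, at 3.84 ± 1.00 (SE, n = 3 per group; adjusted p = 0.037), followed by Tnfsf18, a TNF-family ligand, at 3.63 ± 0.79, and Dusp2. Prl2c5 belongs to a family of near-identical genes, so its probe may read several of them, and its call was lost without any of 5 of the 6 WT arrays in turn. Firmer were Pax8, a developmental transcription factor, and Myct1. Pax8 read -2.91, -4.84 and -3.55 early and -0.18, -0.27 and -0.91 late, a 9.94-fold rise (3.31 ± 0.44, adjusted p = 0.0027). Every late array lay above every early one. P2ry14, a receptor for UDP-sugars, rose 7.85-fold (2.97 ± 0.50, adjusted p = 0.0077) and Mcpt8, annotated as a mast cell protease, 7.05-fold (2.82 ± 0.38, adjusted p = 0.0029). Among the falls, Thbs4, thrombospondin 4, was above background on all 3 early and 0 late arrays and was at least 14.1-fold lower.

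A share of the rises lay in transcripts with no gene symbol. Of 1202 higher genes, 540 (44.9%) had none, against 25.3% of all genes tested and 9.33% (81) of the 868 lower ones. The imbalance was there with a spread per group (43.8% and 8.16%), with median scaling (52.4% and 15%) and with normexp (34.4% and 12.6%). The unnamed transcripts that rose had a median early level of -4.12, below the -2.11 of named genes that rose, and a median difference of 0.98 against 0.84.

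The immediate-early genes had the highest share of rises among the lists. Of 29 on the list, 27 were tested, and 16 rose and 0 fell, 59.3% against 10.6% of all genes; the median difference was 0.86, against -0.0077 for all genes. Of these, 9 still passed with a spread per group. The count kept ran from 10 to 15 when a WT array was left out, lowest without late replicate 1. This and the other gene lists were chosen with earlier results of these data known. Their shares therefore describe the lists and are no independent test. The promoters of 3 genes that rose are shown because they hold CArG boxes, the element bound by serum response factor: Srf, which encodes that factor (0.64 ± 0.14), Zfp36, an RNA-binding protein that shortens the life of cytokine messages (0.92 ± 0.25), and the phosphatase Dusp5. Each is given 5′ to 3′ for the 250 bases before the RefSeq start site on GRCm38.p6, with the CArG boxes in capitals.
Srf, chr17:46556163-46556412, minus strand: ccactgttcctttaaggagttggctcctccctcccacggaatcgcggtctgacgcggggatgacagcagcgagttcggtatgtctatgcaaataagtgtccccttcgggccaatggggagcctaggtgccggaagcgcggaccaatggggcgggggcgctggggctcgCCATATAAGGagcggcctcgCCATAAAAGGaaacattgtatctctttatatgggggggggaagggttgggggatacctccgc
Dusp5, chr19:53528895-53529144, plus strand: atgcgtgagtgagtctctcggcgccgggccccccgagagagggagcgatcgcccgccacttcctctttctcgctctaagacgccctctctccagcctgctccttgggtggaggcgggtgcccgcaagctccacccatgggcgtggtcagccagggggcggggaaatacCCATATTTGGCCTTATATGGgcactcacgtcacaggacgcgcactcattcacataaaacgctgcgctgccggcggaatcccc
Zfp36, chr7:28379229-28379478, minus strand: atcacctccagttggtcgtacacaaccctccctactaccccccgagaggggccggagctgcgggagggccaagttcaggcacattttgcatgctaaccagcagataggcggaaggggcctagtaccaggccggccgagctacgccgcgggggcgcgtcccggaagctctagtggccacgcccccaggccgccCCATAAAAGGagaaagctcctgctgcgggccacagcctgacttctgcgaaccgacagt
The search covered windows of 300 bases around RefSeq starts (250 before, 50 after). A CArG box, read as CC, then A or T at each of the next positions, then GG, was found for 3 of the 12 risen immediate-early genes with a window in the table (Srf, Zfp36 and Egr2), and in 3 of all 21 tested members with one. Among all 32851 windows, 1.63% held one. Counted by gene, with any window of a gene taken, the shares were 1.67% of 11596 genes tested, 2.59% of 501 higher genes and 1.17% of 597 lower genes with a window. The cAMP response element TGACGTCA, searched on both strands, was in 1 of the same 12, in 3.37% of genes tested and in 1.79% of all windows. Among other motifs searched, the EGR site GCGNGGGCG was found more often than the CArG box. It was in 4 of the same 12 and in 10 of the 21 tested members, against 11.59% of genes tested.

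Nr4a1, an orphan nuclear receptor induced within minutes by growth signals, had the smallest standard error of the list. Its level was 1.26, 1.14 and 1.21 on the early arrays and 3.37, 3.25 and 3.29 on the late arrays. The groups were separated by far more than the spread within either, and the rise was 4.29-fold (2.10 ± 0.09, adjusted p = 5.5e-06). In KO cells the passage rise was larger, 3.14 ± 0.09, and the difference between the genotypes was itself called (1.04 ± 0.13, adjusted p = 0.018). That genotype call was lost with the replicate number as a block over the arrays of both genotypes. It was also lost with no filter on dim probes. Egr2, a zinc-finger factor, went from -2.17, -1.53 and -1.91 to 0.59, 0.37 and 0.19 (4.76-fold, adjusted p = 0.00097). Its relative Egr1 went from 2.03, 2.49 and 2.06 to 4.00, 3.87 and 3.59 (3.09-fold, adjusted p = 0.002). The early and late arrays of both genes did not overlap. Egr4 was above background on 0 early and all 3 late arrays and at least 9.52-fold higher. Fos, a subunit of AP-1, rose from -1.42, -1.90 and -2.06 to 0.71, 0.13 and -0.13 (4.08-fold, adjusted p = 0.002), and Junb, its partner, by 1.21 ± 0.26. Not every AP-1 gene did so: Jun differed by 0.42 ± 0.16 (adjusted p = 0.12) and Fosb by -0.12 ± 0.20 (adjusted p = 0.72). Myc, which drives growth and ribosome production, rose by 0.95 ± 0.10, and Arc and Ier3 by 1.85 ± 0.25 and 1.56 ± 0.21.

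The EGF family includes ligands shed from the cell surface that activate the EGF receptor. Of 15 members, 10 were tested, and 5 rose and 0 fell, 50% of those tested against 10.6% of all genes. With a spread per group 3 of the 5 passed. A member low at early passage could enter through another group and then had little room to fall. Of the 6 members above background on all 6 WT arrays, 3 rose. Normexp gave 3 rises among the 10, with a median of 0.23 against 1.12. Hbegf, heparin-binding EGF, read 1.11, 0.98 and 1.1 early and 3.54, 2.86 and 2.71 late (3.92-fold, adjusted p = 0.0024). Ereg, epiregulin, read -0.39, -0.23 and -0.82 early and 1.46, 1.18 and 1.12 late (3.32-fold, adjusted p = 0.0021). For both ligands the lowest late array lay more than 1 log2 unit above the highest early one. Areg rose by 1.78 ± 0.39, though it was above background on 1 of 3 early arrays, and Btc on 0, which makes Btc at least 2.37-fold higher. Errfi1, an inhibitor of the receptor that is itself induced by it, rose 3.11-fold (adjusted p = 0.0013). The receptor Egfr differed by 0.15 ± 0.21 (adjusted p = 0.68).

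Genes that feed back on the MAP kinase cascade went the same way in part. Of 20 tested, 5 rose and 1 fell, Dusp7 at -0.54 ± 0.13, a share of 30% called against 10.6% of all genes. Dusp6, the cytoplasmic ERK phosphatase, read 1.65, 1.79 and 1.61 early and 2.72, 2.6 and 2.82 late (2.04-fold, adjusted p = 0.0022), and the 6 values fell into non-overlapping groups. Dusp1, a nuclear phosphatase, rose 3.71-fold (adjusted p = 0.0062), Dusp2 12.2-fold (adjusted p = 0.0061) and Dusp5 by 1.65 ± 0.33. The Sprouty genes Spry2 and Spry4, inhibitors of receptor signalling, differed by 0.16 ± 0.30 and 0.18 ± 0.20 and did not pass. Targets of serum response factor and YAP, which respond to the actin cytoskeleton, gave 4 rises and 0 falls of 16 tested, among them Ccn1 (1.26 ± 0.16, adjusted p = 0.0026) and Ccn2 (1.2 ± 0.32, adjusted p = 0.042). The 4 calls are 25% of those tested, against 10.6% of all genes. Of these 4, 1 passed with a spread per group, and 1 to 4 were kept when a WT array was left out, each array but early replicate 1 removing some calls. With the replicate number as a block in WT, 7 of the 16 passed, all higher. Among all 19507 genes that block gave 1639 higher and 1348 lower, the background for the counts with this block below.

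**Figure D2:**
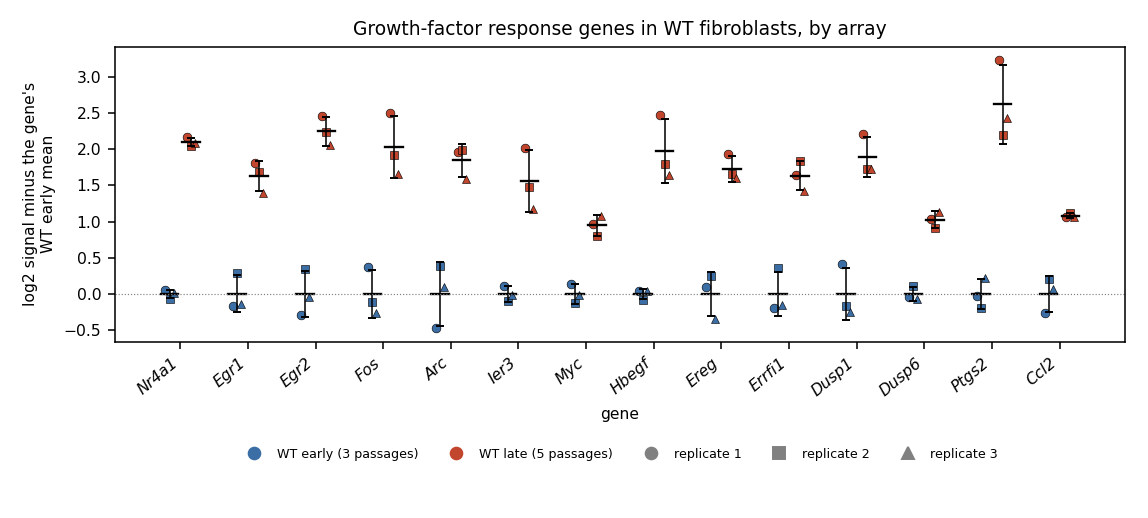
Log2 signal of 14 genes on each WT array, minus the mean of the gene's 3 early arrays; symbols mark the replicate number, the horizontal bars are group means and the vertical bars 1 SD (n = 3). All late points of the 14 genes lie above all early points of the same gene.

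Secreted factors of senescent cells rose in part. Of 42 members, 33 were tested, and 8 rose and 3 fell, with a median of 0.43 (0.16 with normexp, 0.22 over the members above background on all 6 WT arrays or in the authors' deposited table, and 0.27 without late replicate 1); 3 of the 11 passed with a spread per group, and 5 to 9 kept the call when a WT array was left out, with 5 without late replicate 1, 6 without early replicate 2 or early replicate 3 and 7 without late replicate 2. The 11 calls are 33.3% of the members tested, against 10.6% of all genes. With the replicate number as a block in WT, 12 were higher and 5 lower. Ptgs2, cyclooxygenase-2, read -0.23, -0.41 and 0.01 early and 3.03, 2.00 and 2.22 late (6.16-fold, adjusted p = 0.0028). The chemokine Ccl2 read 1.66, 2.13 and 1.99 early and 2.99, 3.05 and 3.00 late (2.12-fold, adjusted p = 0.0016), with tight late values and no overlap. In KO cells Ccl2 fell with passage, by 0.58 on the log2 scale (SE 0.12), and the genotypes differed in this response (-1.66 ± 0.18, adjusted p = 0.011). The genotype call did not hold with the replicate block over all 12 arrays or with no filter on dim probes. Spp1, osteopontin, rose 3.25-fold (adjusted p = 0.0083), and Il6 and Lif, related cytokines, by 1.17 ± 0.27 and 1.66 ± 0.29. Il1b was above background on 0 early arrays and at least 2.36-fold higher late. Hgf, Mmp14 and Il33 fell, by 0.88, 0.82 and 1.08 on the log2 scale. Other genes often used to describe this secretion did not pass, among them Cxcl1 at -0.41 ± 0.57 (adjusted p = 0.67).

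Macrophage transcripts moved with passage in some derivations and not in another, and several of these secreted factors are also made by macrophages. The median of the 20 macrophage markers differed by -0.36 between late and early in replicate 1, by 1.35 in replicate 2 and by 1.79 in replicate 3, with 18 of 20 positive in the group means and 1 called, Lyz2 (1.33 ± 0.33, adjusted p = 0.032). The share called is 5%, against 10.6% of all genes. The Lyz2 call was lost with a spread per group and with the 6 WT arrays alone. It was also lost without early replicate 2, early replicate 3, late replicate 2 or late replicate 3. The receptor Csf1r showed the pattern across replicates plainly, with 4.95, 3.7 and 3.12 early and 4.40, 4.96 and 5.03 late. The groups overlapped and the gene did not pass (adjusted p = 0.19). Within replicate 1, where the macrophage median was -0.36, Ptgs2 differed by 3.26, Spp1 by 1.92, Ccl2 by 1.33 and Il6 by 1.1. The part of macrophage content in these and the other differences was not tested.

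**Figure D3:**
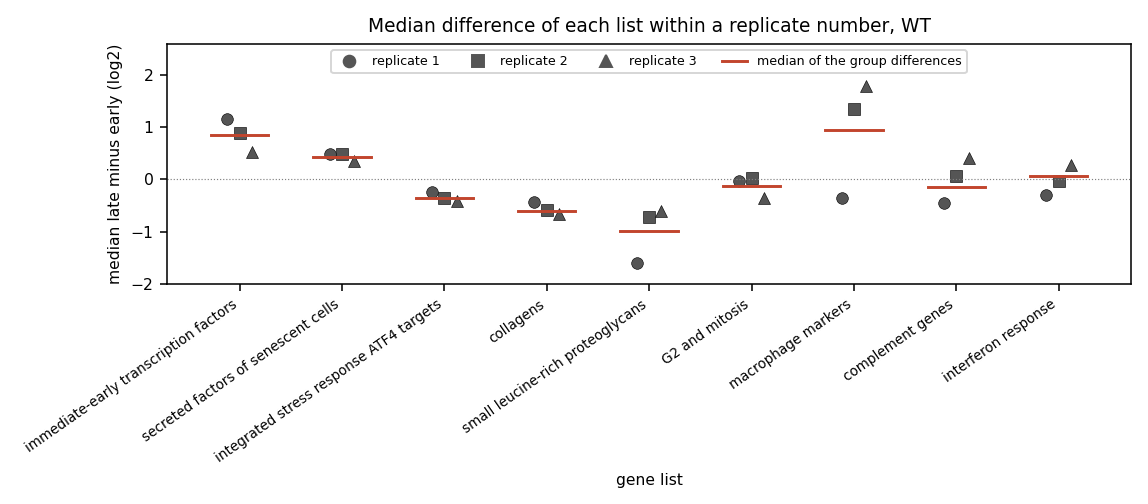
Median late minus early difference (log2) of 9 gene lists within each replicate number (points), with the median of the group differences over the list (red line). The macrophage median is -0.36 in replicate 1 and 1.35 and 1.79 in replicates 2 and 3, while the immediate-early median lies above 0 and the collagen median below 0 in each of the 3.

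Genes of growth arrest gave few calls. Of 23 CDK inhibitors and senescence regulators tested, 0 passed in limma in either direction and 7 had an unadjusted p under 0.05. With the replicate number as a block in WT 4 passed, all lower. None did with the block over all 12 arrays or in the 6 WT arrays alone. Among all 19507 genes, 5552 had an unadjusted p under 0.05 in limma. With the block in WT, 1639 of all genes were higher and 1348 lower. Cdkn1a, which encodes p21, read 3.94, 3.80 and 4.37 early and 3.58, 3.49 and 3.73 late. Its late values were all below the early ones, but the difference of -0.44 ± 0.14 did not pass (adjusted p = 0.076). With the block in WT it did (adjusted p = 0.02), as did Cdkn2b, Cdkn1c and Cdkn2d, all lower late. Cdkn2a, the Ink4a/Arf locus, read 3.18, 3.79 and 3.63 early and 3.17, 3.89 and 4.40 late, and the groups overlapped (0.29 ± 0.26, adjusted p = 0.51). Of 37 p53 targets, 2 rose (Plk2 and Plk3) and 3 fell (Bbc3, Ddit4 and Tnfrsf10b), 13.5% of those tested against 10.6% of all genes, and 3 to 5 were kept when a WT array was left out; with the block in WT 2 were higher and 8 lower. DNA replication genes gave 0 calls of 54 (4 at an unadjusted p under 0.05), with a median of 0.00, and mitotic genes 1 of 45, Cdc25b, a phosphatase that activates CDK1, at -0.73 ± 0.15, lost without early replicate 2 or late replicate 1. Mki67, the proliferation marker, differed by -0.25 ± 0.10 (adjusted p = 0.13) and Pcna by 0.10 ± 0.13 (adjusted p = 0.64). In the mitotic list 39 of 45 differences were negative, with a median of -0.13 that came mainly from replicate 3 (-0.35, against -0.04 and 0.03).

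The insulin-like growth factor axis held the largest fall of a gene above background on all 6 arrays. Igf2, the fetal growth factor, read 2.58, 3.02 and 3.20 early and -1.59, -1.32 and -0.19 late. The drop was 15.7-fold (-3.97 ± 0.32, adjusted p = 0.00045), and the highest late array lay more than 2 log2 units below the lowest early one. Igf2os, the antisense transcript of that locus, fell 8.15-fold (adjusted p = 0.0011); whether its probe reads a single strand was not tested. H19, the non-coding RNA made from the neighbouring imprinted gene, read 7.64, 8.0 and 7.91 early and 5.79, 6.53 and 6.29 late (3.14-fold lower, adjusted p = 0.0014). Igfbp5, a secreted binding protein, fell 11.9-fold, from 3.74, 3.50 and 3.30 to -0.24, 0.06 and -0.01 (adjusted p = 0.00071). The receptor Igf2r fell by 0.74 on the log2 scale, and Igf1r, which transmits the growth signal, rose by 0.46 ± 0.09 (adjusted p = 0.011). Of 17 genes of the axis tested, 1 rose and 3 fell, 23.5% against 10.6% of all genes. These 4 calls held with a spread per group. The rise of Igf1r did not pass with median scaling (adjusted p = 0.13) or with the 6 WT arrays alone (adjusted p = 0.11), where 2 of the 3 falls passed. With the replicate number as a block in WT, 3 were higher and 7 lower. Of 20 imprinted growth genes tested, 0 rose and 6 fell, 30% against 10.6% of all genes. Igf2 and H19 count among the 6, and Mest, Slc38a4, Plagl1 and Peg10 fell by 1.09 to 1.48 on the log2 scale. With a spread per group these last 4 lost the call.

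Mdk, midkine, a growth factor of the developing mesenchyme, was lower on all late arrays. It read -0.21, 0.17 and -0.09 early and -3.30, -2.90 and -2.98 late (8.11-fold, adjusted p = 1.7e-05), and 2 of 2 kept probes had this direction. Among BMP and Wnt genes, which pattern the embryonic mesenchyme, falls outnumbered rises. Of 24 BMP genes 16.7% were called, against 10.6% of all genes. Of them 3 fell, Gdf6, Gdf10 and Chrdl1, and 1 rose, Smad7, an inhibitor of the pathway (0.66 ± 0.16). With the replicate block in WT 1 was higher and 8 lower. Of 25 Wnt genes 7 fell and 0 rose, 28% against 10.6% of all genes. The falls were led by the modulator Sfrp2 at -3.54 ± 0.70 (adjusted p = 0.014). That Wnt count was not stable: 1 of the 7 passed with a spread per group, and 1 to 5 when a WT array was left out, with 1 kept without late replicate 1 and few without early replicate 2, late replicate 2 or late replicate 3. Of 17 TGF-beta genes 3 rose and 0 fell, 17.6% against 10.6% of all genes. These were Tgfb3 at 0.87 ± 0.18 and the repressors Tgif1 and Skil at 0.64 ± 0.10 and 0.54 ± 0.15. With median scaling 1 of these 3 was kept, and with the block in WT 4 were higher and 2 lower.

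Part of the matrix genes fell. Of 25 collagen genes tested, 11 fell and 0 rose, with a median of -0.60; of 10 small leucine-rich proteoglycans, which coat collagen fibrils, 6 fell and 0 rose, with a median of -0.99; and of 37 elastic fibre and matricellular genes, 12 fell and 0 rose, with a median of -0.63. Against the 4.45% of all genes that fell, these are 44%, 60% and 32.4%. With a spread per group 3, 2 and 4 passed, and without a WT array 4 to 8 of the 11 collagens, 4 to 6 of the proteoglycans and 8 to 11 of the elastic fibre genes kept the call, the collagens fewest without late replicate 1 and also fewer without early replicate 3, late replicate 2 or late replicate 3. The falls were not of the main fibril collagens alone, nor mainly of them. Col6a2, a chain of the beaded filament collagen VI, read 1.63, 2.09 and 2.46 early and 0.47, 0.92 and 0.31 late (2.82-fold lower, adjusted p = 0.0073). Its partner Col6a1 read 5.02, 5.36 and 5.53 early and 4.32, 4.46 and 4.24 late (1.95-fold lower, adjusted p = 0.0084). Both sets of values were fully separated. Col1a2 fell by 0.46 on the log2 scale (SE 0.12, adjusted p = 0.035), whereas Col1a1 and Col3a1 did not pass, at -0.21 ± 0.22 (adjusted p = 0.56) and -0.55 ± 0.17 (adjusted p = 0.064).

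Lum, lumican, fell most among the proteoglycans measured on all arrays. It read 1.83, 2.78 and 0.80 early and -1.40, -0.47 and -1.27 late (7.21-fold, adjusted p = 0.0077), with a wide early spread and no overlap. Aspn and Ogn fell by 0.96 and 0.80 on the log2 scale. Thbs2, thrombospondin 2, read 1.98, 1.65 and 2.25 early and 0.30, 0.10 and 0.69 late (3.03-fold lower, adjusted p = 0.0022). Eln, elastin, fell by 2.45 and the microfibril genes Fbn1, Fbn2, Mfap2 and Mfap4 by 0.92, 1.65, 0.79 and 2.31, on the log2 scale, and all 5 lost the call with a spread per group. Ccn3, a matricellular protein, fell by 1.87 on the log2 scale (SE 0.26, adjusted p = 0.0035), in contrast to its relatives Ccn1 and Ccn2, which rose. Of 23 matrix proteases and inhibitors 5 fell and 0 rose, 21.7% against 10.6% of all genes. Among them were Adamts5, the main aggrecan-cleaving enzyme, at -1.12 ± 0.14 (adjusted p = 0.0021), and Mmp23 at -1.19 ± 0.19 (adjusted p = 0.0064). Of the 5 protease and inhibitor calls, 2 passed with a spread per group and 1 with the 6 WT arrays alone. When a WT array was left out 2 to 4 were kept, with 2 without early replicate 2, early replicate 3, late replicate 1 or late replicate 2.

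**Figure D4:**
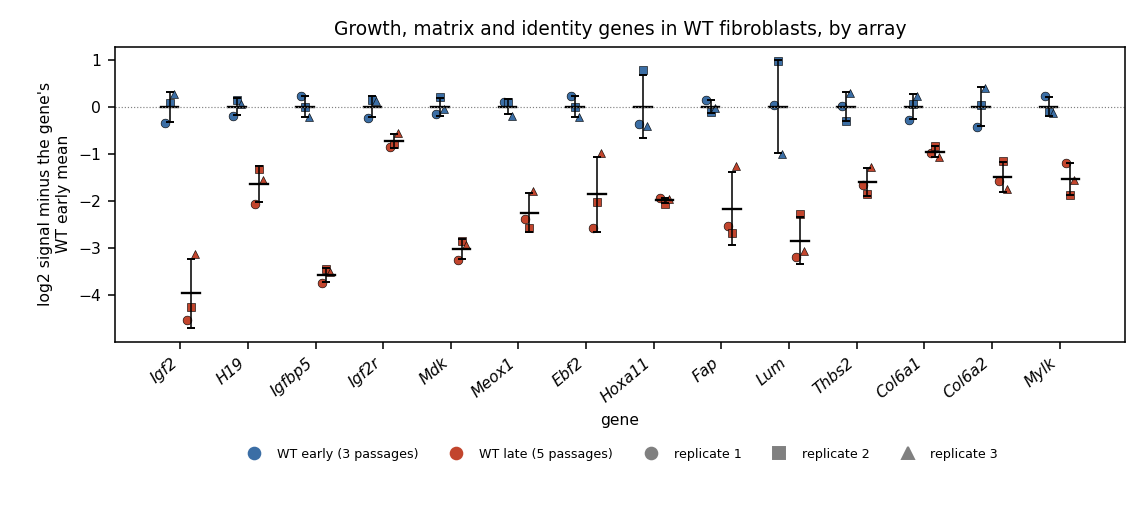
Log2 signal of 14 genes on each WT array, minus the mean of the gene's 3 early arrays; symbols mark the replicate number, the horizontal bars are group means and the vertical bars 1 SD (n = 3). All late points of the 14 genes lie below all early points of the same gene, furthest for Igf2 at a mean of -3.97.

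Some transcription factors that mark position and lineage fell. Of 57 mesenchymal and mesodermal factors tested, 10 fell and 0 rose (17.5%). Of 32 Hox genes, which record position along the body axis, 6 fell and 0 rose (18.8%). Among all genes 4.45% fell, and 10.6% were called in either direction. In each list 3 passed with a spread per group. Without late replicate 1, 6 of the 10 and 3 of the 6 kept the call, and the Hox genes lost calls without late replicate 2 as well. With the replicate number as a block in WT, 4 of the 57 were higher and 19 lower, and 3 of the 32 Hox genes higher and 8 lower. The Hox genes gave 4 higher and 4 lower without early replicate 1, and 3 of each without both WT arrays of number 1, where their median was -0.28 against -0.66. Meox1, a factor of the somites, read 0.82, 0.83 and 0.54 early and -1.66, -1.85 and -1.06 late (4.77-fold lower, adjusted p = 0.00094). Hoxa11, a limb and body-wall gene, read -0.61, 0.54 and -0.64 early and -2.19, -2.30 and -2.20 late (3.98-fold lower, adjusted p = 0.0036), and Hoxa9 and Hoxa10 fell by 1.25 and 1.29 on the log2 scale. The arrays of both ages were separated for Meox1 and Hoxa11. Wt1, also a mesothelial marker, was above background on 1 of 3 late arrays, so its fall of 3.44 on the log2 scale is uncertain in size. Ebf1, Ebf2, Prrx1 and Six2 fell by 1.31, 1.86, 1.02 and 1.47 on the log2 scale.

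Lineage markers of other cells gave mixed counts, which touch the falls above. Of 16 cartilage and bone markers tested 4 fell and 0 rose (Alpl and the collagen IX chains Col9a1 and Col9a2 among them), with medians of -1.39, -0.58 and -0.55 in replicates 1 to 3 and a summed level of 38.4 to 95.9 early and 42.7 to 51.1 late. Of 17 smooth muscle markers 3 fell, Mylk most firmly (-1.54 ± 0.16, adjusted p = 0.0011), but Acta2 and Tagln, the main contractile markers, differed by -0.10 ± 0.18 and -0.03 ± 0.15. Of 10 skeletal muscle markers 3 fell and 1 rose. Fap, a surface protease of activated fibroblasts, fell 4.5-fold (adjusted p = 0.0037) and was with Ddr2 the only called gene of the 15 fibroblast markers. The calls are 25% of the cartilage and bone, 17.6% of the smooth muscle and 40% of the skeletal muscle markers tested. The fibroblast share is 13.3%, against 10.6% of all genes. With the replicate block in WT, 1 cartilage and bone marker was higher and 7 lower, and 1 smooth muscle marker higher and 4 lower. Their part in the matrix and factor results was not tested.

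Part of the genes of amino acid supply and of lipid synthesis fell. Of 25 targets of ATF4, the factor of the integrated stress response, 8 fell and 0 rose, 32% against 10.6% of all genes. The median was -0.36. With a spread per group 5 of the 8 passed, and 5 were kept without late replicate 2. Trib3, a pseudokinase in that response, read 3.75, 3.91 and 3.85 early and 2.67, 2.58 and 2.67 late (2.30-fold lower, adjusted p = 0.0019). The values within each age lay close together. In KO cells the passage difference of Trib3 was 0.36 ± 0.14, and the genotypes differed in it (1.56 ± 0.20, adjusted p = 0.021). That genotype call did not hold with the replicate block over the arrays of both genotypes or with no filter on dim probes. Psat1, of serine synthesis, and Asns, which makes asparagine, fell by 0.68 and 0.36 on the log2 scale, as did the tRNA synthetase genes Aars and Sars by 0.59 and 0.51. The promoters of Asns and Aars are shown because they hold the letters TGATGNAA, which spell the composite element bound by ATF4 with a C/EBP partner, on either strand. Both are given 5′ to 3′ for the 250 bases before the start site on GRCm38.p6, with the match in capitals.
Asns, chr6:7693210-7693459, minus strand: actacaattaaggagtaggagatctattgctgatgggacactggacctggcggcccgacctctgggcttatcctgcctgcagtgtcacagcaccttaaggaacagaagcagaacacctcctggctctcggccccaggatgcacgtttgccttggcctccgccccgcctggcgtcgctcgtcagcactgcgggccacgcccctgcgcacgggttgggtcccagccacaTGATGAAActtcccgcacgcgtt
Aars, chr8:111033592-111033841, plus strand: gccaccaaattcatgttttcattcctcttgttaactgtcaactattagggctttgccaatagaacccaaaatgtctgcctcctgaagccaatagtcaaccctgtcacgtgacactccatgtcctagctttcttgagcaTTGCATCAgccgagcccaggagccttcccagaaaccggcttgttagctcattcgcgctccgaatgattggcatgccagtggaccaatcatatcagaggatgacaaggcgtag
In the 300-base windows, a match was found for 9 of 24 tested members and for 4 of the 7 fallen members with a window in the table, against 2.92% of genes tested, 4.39% of higher genes and 5.19% of lower genes, and 3.97% of all windows. The list was compiled from known ATF4 targets, so its share of matches is not independent of how the list was made.

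Of 34 genes of sterol and fatty acid synthesis, 11 fell and 0 rose, 32.4% against 10.6% of all genes. The median was -0.25 (-0.01, -0.13 and -0.55 in replicates 1 to 3, and -0.08 without both WT arrays of number 3). With a spread per group 3 of the 11 passed. The desaturases Scd1 and Scd2 and the elongase Elovl5 fell by 0.99, 0.75 and 0.62 on the log2 scale. The sterol synthesis genes Hmgcs1 and Sqle did not pass, at -0.07 ± 0.12 and -0.01 ± 0.14. As few as 4 of the 11 kept the call without early replicate 2, and fewer were kept without early replicate 3, late replicate 1 or late replicate 3 too. Housekeeping lists gave few or no calls: 0 of 54 ribosomal protein genes, 0 of 44 of oxidative phosphorylation, 0 of 25 of ribosome biogenesis and 0 of 23 of the unfolded protein response. At an unadjusted p under 0.05 in limma they had 25, 5, 3 and 6 genes, against 5552 of all 19507 genes tested. With the replicate block in WT, 1 gene of oxidative phosphorylation and 1 of the unfolded protein response were lower. In the ribosomal protein list 53 of 54 differences were negative, with a median of -0.20 (-0.02 with quantile normalization).

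**Figure D5:**
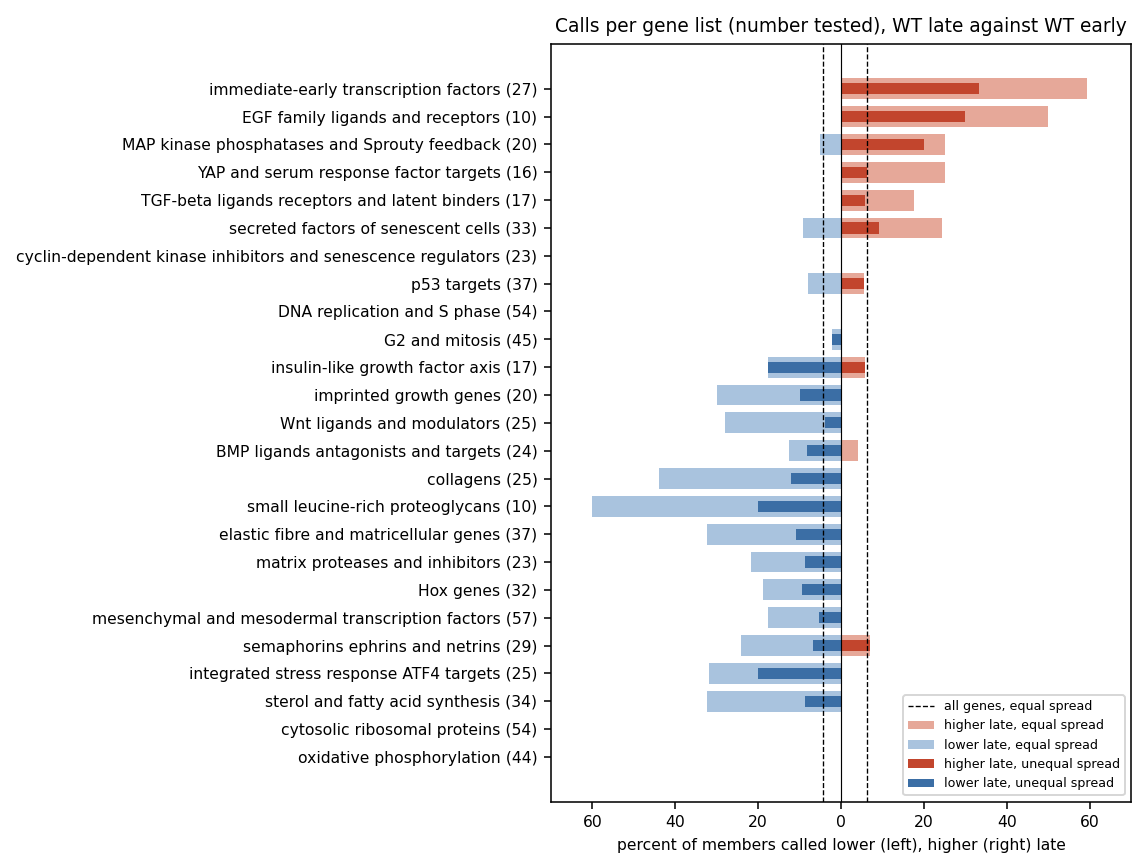
Percent of the tested members of 25 gene lists called lower (left) or higher (right) at late passage; pale bars use a spread shared by all groups, dark bars a spread per group, and the dashed lines mark the percent of all genes called. Immediate-early and EGF family genes lie on the right, matrix, Hox, ATF4 target and lipid synthesis genes on the left, and replication and ribosomal protein genes have no bar.

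Vasoactive genes changed in both directions, and the complement gene C3 rose. Among 15 angiotensin and prostaglandin genes 4 fell, including the receptors Agtr1b, Agtr2 and Ptgfr, and 3 rose, among them Ptgs2 and the receptor Ptger4. These 7 calls are 46.7% of the genes tested, against 10.6% of all genes. With a spread per group 2 of the 7 passed. When a WT array was left out 3 to 7 were kept, fewest without late replicate 1. Agtr1b was above background on 1 of 3 late arrays, so its fall of 3.95 on the log2 scale is uncertain in size. Of 14 genes tested on the complement list 2 rose, C3 among them, and the 1 that fell is a C1q-related gene. These calls are 21.4% of the list, against 10.6% of all genes. C3, the central complement protein, read -2.40, -2.05 and -2.69 early and -0.88, -0.21 and -0.48 late (3.61-fold higher, adjusted p = 0.0011), and its 2 kept probes had the same direction. Its difference was 1.51 in replicate 1, 1.83 in replicate 2 and 2.21 in replicate 3, and the part of macrophage content in it was not tested. Of 29 guidance genes, 31% were called, against 10.6% of all genes. Of them 7 fell and 2 rose, Sema7a at 2.00 ± 0.27 (adjusted p = 0.0031) and Epha4 at 1.43 ± 0.30.

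Itpr2 itself, the type 2 inositol trisphosphate receptor after which the KO line is named, was higher in WT cells at late passage. It read 1.23, 0.97 and 0.67 early and 1.53, 1.74 and 1.56 late, with no overlap (0.66 ± 0.15, adjusted p = 0.025). The call did not hold with a spread per group (adjusted p = 0.072), and was kept without 2 of the 6 WT arrays in turn. Its relatives Itpr1 and Itpr3 did not pass, at -0.20 ± 0.12 and 0.16 ± 0.17. Of 36 calcium handling genes tested, Itpr2 was the only one called higher. Orai3, a subunit of store-operated calcium channels, was the only one called lower (-0.45 ± 0.10). The calls are 5.6% of the list, against 10.6% of all genes. Of the 36 differences 16 were positive and 20 negative.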

How the data were processed

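The deposited scanner files hold the intensity of each spot on a linear scale, background-subtracted by Agilent Feature Extraction and not normalized between arrays, per the file headers. The headers name version 11.5.1.1 and the submitters' processing notes 10.7.3.1. The authors' deposited value table holds log2 values for 22887 probes, with scale and centring not given in the sources used here; by comparison with the scanner values its columns are relative to the 75th percentile, and each probe is centred over the 12 arrays, with column medians from -0.0428 to 0.0232. It was used as an alternative.

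Outlier spots (130 to 152 per WT array) were left out, spots of a probe averaged, and log2 signal taken relative to the array's 75th percentile. A probe was kept if in 1 or more of the 4 groups each of the 3 arrays had it well above background (24466, of which 107 were lost to outlier spots), so a gene low in one WT group could enter through another. The brightest probe stood for a gene, giving 19507 genes, 14577 with a symbol from RefSeq tables (27969 of 28290 accessions matched). Of the named genes that passed, Epha7, Fgfr4, Nkd1 and Slc7a5 were among those that had another kept probe of opposite direction, and their values are not given. They still count in their lists: Slc7a5 among the fallen ATF4 targets, Nkd1 among the fallen Wnt genes and Epha7 among the fallen guidance genes.

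The model was limma 3.58.1 in R 4.3.3 with 4 group means over 12 arrays (8 residual and 2.22 prior degrees of freedom) and Benjamini-Hochberg adjustment over all genes at 0.05. It was tested on simulated data. Over genes, the median SD between arrays was 0.215 for WT early, 0.159 for WT late, 0.141 for KO early and 0.0838 for KO late arrays, so the shared spread understates that of WT. Replicate numbers were taken to pair the WT arrays: deviations from the group means correlated at 0.197, 0.242 and 0.118 within numbers 1, 2 and 3 over 17956 genes, and at -0.151 to -0.048 across them. Numbers, slides and scans coincide. The labels do not say that same-numbered early and late arrays are 1 culture. With 3 arrays per group a permutation test of a single gene cannot go below 0.1, and the number of arrays limits the precision. Genes above background on 0 arrays of a group have a lower bound against the lowest signal above background there. Named genes were the 15 largest rises and falls with separated arrays, called list members and preset key members. The comparison and the gene lists were chosen with earlier results of these data known. Normexp used the median spot signal, since no mean signal column was used here. Alternatives concerned the samples, block, spread, background, scaling, filter, probes, the authors' table and leaving out arrays. Promoter windows are RefSeq's on GRCm38.p6; the array was designed on an older build, and no probe coordinates were used. The liver samples named in the design text were not analysed here.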

Additional observations from a re-analysis of the deposited data

Results flagged for a closer look

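For 4 of the 155 genes named in the text and tested, the response to passage differed between the genotypes by a test of that difference (limma, late minus early in KO minus late minus early in WT, adjusted over all genes). Of the 155, 129 were called in WT. The WT difference by which many were named is subtracted in this test, so that choice can bias the genotype difference. The share over all genes is not given here. For Nr4a1 the difference was 1.04 ± 0.13 (SE; adjusted p = 0.018): the gene was higher late in both genotypes, by 2.10 in WT and 3.14 in KO. For Ccl2 it was -1.66 ± 0.18 (adjusted p = 0.011), with 1.08 in WT and -0.58 in KO. For Trib3 it was 1.56 ± 0.20 (adjusted p = 0.021), with -1.20 in WT and 0.36 in KO, the last not called (adjusted p = 0.105). For Nes, nestin, a filament of progenitor cells, it was -2.08 ± 0.27 (adjusted p = 0.021), with 0.83 in WT and -1.25 in KO. Each value rests on 3 arrays per group, and the 4 groups lay at 4 fixed positions on the slides.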

How the results depend on the processing

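The count of 2070 genes fell to 552 with the 6 WT arrays alone, to 565 with a spread per group and to 1003 with no filter on dim probes. Leaving out 1 WT array gave 1158 (without late replicate 1) to 2483 (without early replicate 1). In alternatives chosen after seeing the data, leaving out both WT arrays of number 2 gave 596 and of number 3 1304. Under all 19 planned settings 85 genes were called the same way, 53 higher and 32 lower. With the replicate number as a block, 2232 genes passed over 12 arrays, 2987 with the block in WT only and 304 with the block in the 6 WT arrays; the settings not named here gave 1649 to 2417. The block in WT only ended no call of the 129 called genes the text names, and it added Cdkn1a, Cdkn1c, Cdkn2b and Cdkn2d. The list counts given with a block in WT are of this form; the block in the 6 WT arrays gave 4 secreted factors, 2 genes of the insulin-like growth factor axis, 5 mesenchymal factors and 4 Hox genes.

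The 4 differences between genotypes became 0 with the replicate block over 12 arrays, 2 with a spread per group, 0 with no filter, 11 with normexp and 11 with median scaling. They were 2 to 4 without 1 WT array, and 1 and 0 without both WT arrays of number 2 and of number 3.

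None of the 129 called genes changed sign under any setting run; of the 129, 27 were called in every planned setting and 82 without each WT array in turn. Of the 26 named genes that did not pass, 14 changed sign, the cause of which was not tested. With normexp, Ddx3y was at -0.03, Spry2 and Spry4 at -0.11, Sqle at 0.04 and Tagln at 0.01. With quantile normalization, Acta2 was at 0.11, Spry4 at -0.08, Sqle at 0.01 and Tagln at 0.17. With median scaling Pcna was at -0.03, and with the mean of a gene's probes Hmgcs1 at 0.08. Without both arrays of number 1, Itpr3 was at -0.02 and Spry4 at -0.07; without those of number 2, Spry2 was at -0.06 and Sqle at 0.01. Without those of number 3, Acta2 was at 0.14, Egfr at -0.06, Fosb at 0.16, Hmgcs1 at 0.07, Pcna at -0.03, Ptch1 at 0.02, Sqle at 0.07 and Tagln at 0.11. Without 1 WT array the ranges were -0.29 to 0.07 for Acta2, 0.00 to 0.61 for Cdkn2a, -0.92 to 0.10 for Cxcl1, -2.62 to 2.79 for Ddx3y, -0.09 to 0.28 for Egfr, -0.26 to 0.09 for Fosb, -0.15 to 0.07 for Hmgcs1, -0.07 to 0.24 for Pcna, -0.46 to 0.17 for Ptch1, -0.10 to 0.41 for Spry2, -0.11 to 0.14 for Sqle and -0.11 to 0.06 for Tagln. Signal near background limits genes such as Gli1, Wt1 and Agtr1b, which were not above background on every late array.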

Other observations

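Among genes outside the lists above, chosen after their values were seen, both endothelin receptors were lower at late passage while the ligand was higher. Ednra, the receptor for endothelin 1 on mesenchymal cells, read -0.14, 0.28 and 0.22 early and -2.66, -2.06 and -2.0 late (-2.36 ± 0.22 (SE, n = 3 per group), limma adjusted p = 0.00087). Ednrb had -2.12 ± 0.45 (adjusted p = 0.018) and Edn1, which encodes endothelin 1, 1.37 ± 0.32 (adjusted p = 0.026), both lost with a spread per group (adjusted p = 0.11 and 0.095). The natriuretic peptide genes Nppb and Nppa were higher late, at 2.32 ± 0.36 (adjusted p = 0.0054) and 1.61 ± 0.35 (adjusted p = 0.021; 0.085 for Nppa with a spread per group). The heparan sulfate proteoglycans Gpc3 and Gpc1, which bind growth factors at the cell surface, were lower: Gpc3 read 2.67, 2.44 and 2.53 early and 0.74, 0.43 and 0.33 late (-2.05 ± 0.14, adjusted p = 0.00014), and Gpc1 had -1.16 ± 0.14 (adjusted p = 0.002). Has1 and Has2, which make hyaluronan, were higher at 1.64 ± 0.20 and 0.97 ± 0.18 (adjusted p = 0.0021 and 0.010). Has1 was above background on 2 of 3 early arrays, and Has2 did not pass with a spread per group (adjusted p = 0.089).

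In the hedgehog pathway, also picked after its values were seen, the co-receptors Cdon, Gas1 and Boc were lower at -1.06 ± 0.22, -0.89 ± 0.24 and -0.74 ± 0.19, as were the transcription factors Gli2 (-1.02 ± 0.22) and Gli1 (-2.19 ± 0.56, above background on 2 of 3 late arrays). Gli3, Smo and Ptch1 did not pass, at -0.16 ± 0.13, -0.10 ± 0.09 and -0.19 ± 0.27. With a spread per group none of the 5 passed (adjusted p = 0.064 for Cdon). Of myeloid genes outside the macrophage list, Clec4n differed by 2.19 ± 0.32, (adjusted p = 0.0042), and by 1.30 in replicate 1 against 2.56 and 2.70 in replicates 2 and 3. Tnf differed by 1.28 ± 0.30 (adjusted p = 0.025, and 0.16 with a spread per group), and by 0.40 in replicate 1 against 1.82 and 1.63 in replicates 2 and 3. The part of macrophage content in these values was not tested.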
